A study of Mus musculus with 12 samples.

Results

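Glycolysis splits glucose into pyruvate through a chain of cytosolic enzymes, and the pentose phosphate pathway branches from its first product, glucose 6-phosphate, to yield NADPH and ribose for nucleotides. Most steps are served by isozymes, closely related enzymes from separate genes whose regulation and tissue range differ. Dividing lymphoid cells, T-cell leukemias among them, are known for taking up much glucose and exporting much of the resulting carbon as lactate, and Myc and hypoxia-inducible factors are textbook inducers of many of these genes. The genes described here are the 41 genes of glucose uptake, glycolysis, pyruvate and lactate handling and the pentose phosphate pathway. They were taken by gene symbol from the 27179 genes of the count table, where 41 of 41 were present. By role, 14 act in upper glycolysis (uptake to fructose bisphosphate and its regulators), 10 in lower glycolysis (aldolase to pyruvate kinase), 10 in the fate of pyruvate and 7 in the pentose phosphate pathway.

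RNA-seq counts came from T-ALL cells (a leukemia of immature T cells) of 6 recipient mice that all carried 1 primary leukemia, ALL101, of genotype Vav-tTA;TRE-GFP-shIkaros. In this leukemia the Vav promoter, active in blood cells, drives a tetracycline-off activator, which in turn drives a hairpin against Ikaros (gene Ikzf1) linked to green fluorescent protein. The doxycycline group was 3 mice given the drug for 3 days, which per the labels turns the hairpin off and lets Ikaros return, and its sorted spleen cells were GFPmid. The untreated group was 3 mice without the drug, whose sorted spleen cells were GFPhigh. The library names of untreated mouse 3 carry INJ in place of a sort. The meaning of INJ is not given, so these names do not show that its cells were sorted. Both groups carry both transgenes, each RNA was sequenced in 2 runs, and no source used here gives the ages of the mice. Doxycycline, the returned Ikaros and the GFP gate differ together between the groups, so their effects cannot be told apart. All mice carry the same leukemia, so the spread between mice is not a spread between leukemias.

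Totals per mouse, over both runs, were 33899095 to 44949303 counts in doxycycline mice and 29904744 to 33063390 in untreated mice. Values below are CPM, counts scaled to library sizes adjusted by the TMM method, listed for mice 1, 2 and 3 in that order, or as mean ± SD (n = 3 mice each). Fold changes are on the log2 scale, doxycycline over untreated, with their SE, and a gene rose or fell where the edgeR quasi-likelihood test gave an adjusted p under 0.05 over all genes tested. These p-values measure the spread between these mice only. Ikzf1 had 1438 to 1523 CPM in doxycycline mice, against 149.7 to 159 CPM in untreated mice, in the direction of the labels. The 8 T cell markers summed to 5306 to 5523 CPM in doxycycline mice and 4702 to 4740 CPM in untreated mice, led by Thy1. Markers of other cells moved too: the 8 myeloid genes summed to 63.1 to 84.1 CPM in doxycycline mice and 22.6 to 42.7 CPM in untreated mice, with 3 of the 8 called higher and 3 lower. The 6 erythroid genes, led by Hbb-b1, summed to 63.2 to 91.9 CPM in doxycycline mice and 6.90 to 39.1 CPM in untreated mice, with 3 called higher. The 5 stroma and endothelium genes, of which Pecam1 made up nearly all counts, summed to 208 to 219 CPM in doxycycline mice and 121 to 151 CPM in untreated mice. Pecam1 and Col1a1 were called higher. The other members, Cdh5, Kdr and Col3a1, had at most 0.369 CPM in any mouse and were not tested, so the sum is in effect that of Pecam1. B cell, NK cell and platelet lists stayed under 1 CPM in every mouse, with the B cell factor Pax5 at 0 in all 6. The part of these other cells in the results below was not tested. Untreated mouse 3, whose libraries are named with INJ in place of a sort, lay nearest to the doxycycline mean in 3675 of the 6571 genes called (55.9%), and in 11 of the 18 called genes of these pathways. Doxycycline mouse 3 lay nearest to the untreated mean in 55.2% of called genes and in 12 of the same 18.

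The pathway genes moved to lower levels more often than to higher ones after 3 days of doxycycline. Of the 40 tested (Pdk2 did not reach the filter on low counts), 14 fell, 4 rose and 22 did not pass. Over all 13134 genes tested 50.0% were called, 24.8% higher and 25.2% lower. Among the pathway genes 45.0% were called, 10% higher and 35.0% lower, so the share called overall was near the background and the split leaned to lower. Their median log2 fold change was -0.17, beside -0.0037 over all genes tested. The genes that fell were Slc2a3, Hk2, Pfkl, Pfkm, Pfkfb3, Fbp1, Tpi1, Pgk1, Pgam1, Eno3, Ldha, Slc16a1, Pgls and Tkt, and those that rose were Slc2a1, Pfkfb2, Eno2 and Slc16a3. Only 2 rose when doxycycline mouse 1, doxycycline mouse 3, untreated mouse 1 or untreated mouse 2 was left out, and the number that fell was 11 to 15 over the 6 fits that each left out 1 mouse. The groups of mice did not overlap for 27 of the 40 (67.5%), 21 with doxycycline lower and 6 with it higher, against 61.2% over all genes tested. Together the 41 genes summed to 4680.5, 4569 and 5506 CPM in doxycycline mice, against 6219.6, 6011 and 6172 CPM in untreated mice. In bulk RNA of a sorted gate, fewer cells that express a gene and less RNA per cell cannot be told apart. Doxycycline mice differed among themselves: of the 40 genes, mouse 3 had the highest value of its group in 25 and mouse 2 the lowest in 22, whereas over all genes tested these shares were 32.9% and 36.7%.

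**Figure D1:**
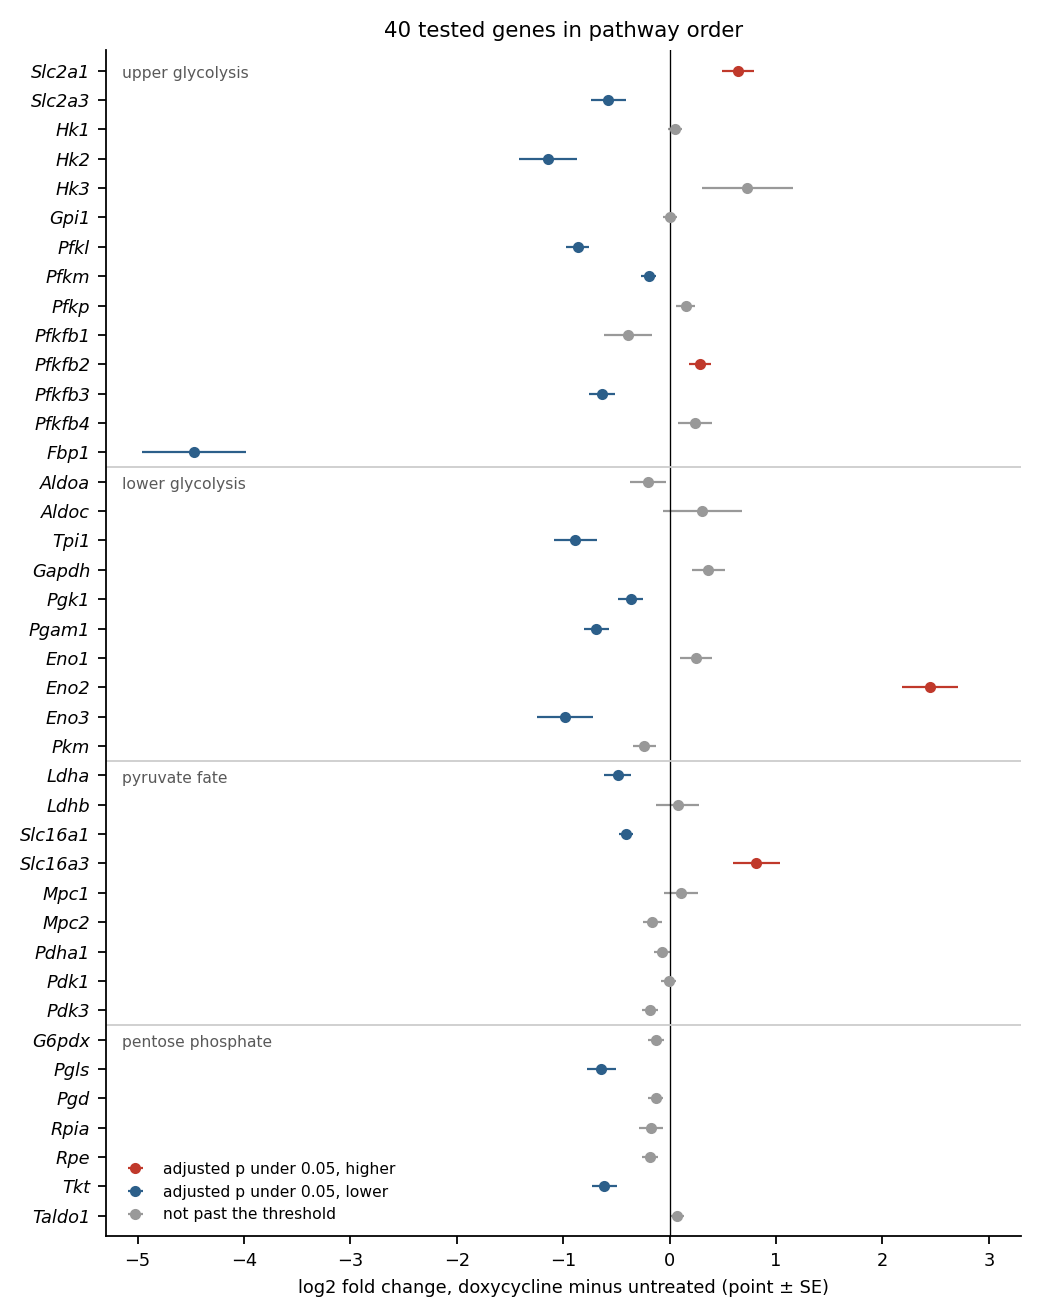
Log2 fold change of each of the 40 tested genes (point) with its SE (bar), in pathway order from glucose uptake at the top to the pentose phosphate pathway at the bottom. Red points rose, blue points fell and grey points did not pass; Fbp1 at -4.47 and Eno2 at 2.45 lie farthest from 0.

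Promoters of 4 genes whose levels moved are shown because 3 of them hold the E-box letters that Myc binds and the fourth holds hypoxia-response cores. Each is the 250 bases before a RefSeq start site (GRCm38.p6), written 5′ to 3′ on the gene's strand, and capitals mark the matches. Where a gene had several windows, the window shown was chosen as free of annotated exons and holding the most E-boxes. Ldha had 2 windows and Pfkfb2 3. The other Ldha window held no match of the letters searched, and the other Pfkfb2 windows held no E-box. The letters searched were CACGTG (E-box, the same on both strands), ACGTG on either strand (1 form of the core bound by hypoxia-inducible factors) and TGGGAA on either strand (the core of Ikaros sites). Every E-box also holds ACGTG on each strand and so counts as 2 matches of it.
Ldha (chr7:46845554-46845803, plus strand): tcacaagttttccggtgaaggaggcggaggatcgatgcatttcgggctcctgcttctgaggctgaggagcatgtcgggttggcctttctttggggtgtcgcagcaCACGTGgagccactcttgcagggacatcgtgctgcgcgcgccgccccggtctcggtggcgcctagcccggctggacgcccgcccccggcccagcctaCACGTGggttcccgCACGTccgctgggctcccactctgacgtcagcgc
Slc16a1 (chr3:104638414-104638663, plus strand): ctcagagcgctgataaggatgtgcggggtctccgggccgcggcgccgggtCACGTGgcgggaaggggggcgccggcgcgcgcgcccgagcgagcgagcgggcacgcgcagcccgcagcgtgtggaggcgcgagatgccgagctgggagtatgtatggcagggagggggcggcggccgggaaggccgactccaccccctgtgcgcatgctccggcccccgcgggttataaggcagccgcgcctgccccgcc
Pfkfb2 (chr1:130715822-130716071, minus strand): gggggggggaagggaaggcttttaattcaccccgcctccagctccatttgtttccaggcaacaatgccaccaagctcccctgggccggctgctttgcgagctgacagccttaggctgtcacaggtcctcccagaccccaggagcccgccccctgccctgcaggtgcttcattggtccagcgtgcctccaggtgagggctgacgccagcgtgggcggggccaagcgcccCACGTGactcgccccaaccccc
Hk2 (chr6:82774455-82774704, minus strand): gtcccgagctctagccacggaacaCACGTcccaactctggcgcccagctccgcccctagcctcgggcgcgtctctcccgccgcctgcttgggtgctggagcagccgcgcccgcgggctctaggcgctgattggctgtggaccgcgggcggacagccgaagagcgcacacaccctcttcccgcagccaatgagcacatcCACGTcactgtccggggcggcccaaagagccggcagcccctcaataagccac
Ldha, for the lactate dehydrogenase subunit that turns pyruvate into lactate, holds 2 E-boxes, whose first bases lie at positions -145 and -48 from the start site, and 1 further ACGTG match at -34. Slc16a1, a lactate exporter gene, holds 1 E-box at -200 and Pfkfb2 holds 1 at -22. The Hk2 window holds no E-box and 2 matches of ACGTG, at -226 and -52. RefSeq promoters were found for 40 of the 41 genes (61 windows, several genes having more than 1), and Slc2a3 had none. An E-box lay in 6 of the 61 windows (9.84%), against 6.02% of all 32851 promoter windows of that length. ACGTG lay in 31.1% of them, against 16.6% of all, and TGGGAA in 21.3%, against 21.6% of all. By gene, at least 1 E-box was present in 4 of the 13 genes that fell and had a window, 1 of the 4 that rose, 0 of the 22 that did not pass, and the untested Pdk2. ACGTG was present in 7 of the 13 that fell, 3 of the 4 that rose and 4 of the 22 that did not pass. TGGGAA was present in 2 of the 13 that fell, 1 of the 4 that rose and 7 of the 22 that did not pass. A gene with more windows, up to 4 for Pfkm, has more places for a match. The share by gene over all genes was not computed, so these counts by gene have no background and cannot be set against the shares of windows. These are matches of letters, with no measurement of binding.

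Glucose uptake had members that moved in opposite directions. Slc2a1, the widely expressed glucose transporter, had 19.9, 13.96 and 19.7 CPM in doxycycline mice, against 12.1, 10.4 and 11.9 CPM in untreated mice. All 3 doxycycline mice lay above all 3 untreated mice, and the gene rose by 0.64 ± 0.15 log2 units (adjusted p = 0.00850, edgeR), 1.56-fold. Slc2a3, a high-affinity glucose transporter, had 29.6, 32.3 and 43.6 CPM in doxycycline mice, against 57.4, 55.7 and 44.4 CPM in untreated mice. Doxycycline mouse 3 and untreated mouse 3 nearly met, and the gene fell by 0.58 ± 0.16 log2 units (adjusted p = 0.0204, edgeR). That call was lost without doxycycline mouse 1 or 2 (adjusted p = 0.0629 and 0.0783) or untreated mouse 1 or 2 (0.0673 and 0.0651). The share of Slc2a1 in the pair's summed level per kilobase of gene length was 50.8, 39.9 and 41.05% in doxycycline mice, against 24.4, 22.3 and 29.2% in untreated mice. Its share was thus higher in every doxycycline mouse, while the summed level of the pair overlapped between groups, at 15.8 ± 2.60 CPM per kilobase in doxycycline mice and 17.7 ± 1.71 in untreated mice.

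Hexokinases trap glucose as glucose 6-phosphate, and of the 3 measured only the Hk2 gene passed. Hk2, the inducible isozyme (chromosome 6, 82725025 to 82774454 of GRCm38), had 24.05, 12.5 and 23.7 CPM in doxycycline mice, against 51.7, 36.9 and 44.3 CPM in untreated mice. Even the highest doxycycline mouse stayed under the lowest untreated mouse, and Hk2 fell by 1.14 ± 0.27 log2 units (adjusted p = 0.0139, edgeR), 2.21-fold lower. Hk1, the constitutive isozyme and the main one here, had 139, 150.0 and 152 CPM in doxycycline mice, against 133, 147 and 147 CPM in untreated mice. Its groups overlapped, with a log2 fold change of 0.05 ± 0.07 (adjusted p = 0.574, edgeR). Hk3, an isozyme of myeloid cells, stayed under 1 CPM in every mouse and did not pass (log2 fold change 0.73 ± 0.43, adjusted p = 0.187, edgeR). The Hk2 share of hexokinase per kilobase was 9.99 ± 3.20% in doxycycline mice and 20.3 ± 3.58% in untreated mice, without overlap between the groups. That of Hk1 was 89.6 ± 2.99% in doxycycline mice and 79.5 ± 3.52% in untreated mice. Gpi1, for the isomerase that makes fructose 6-phosphate, had 274, 283 and 303 CPM in doxycycline mice, against 280.0, 277 and 302 CPM in untreated mice. The groups overlapped at nearly equal means, with a log2 fold change of 0.00 ± 0.07 (adjusted p = 0.987, edgeR).

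Phosphofructokinase 1, the committed step of glycolysis, is built from the products of Pfkl, Pfkm and Pfkp, and the shares of these 3 RNAs differed between the groups. Pfkl, the liver-type subunit (chromosome 10, 77986947 to 78009807 of GRCm38), had 81.1, 66.9 and 90.5 CPM in doxycycline mice, against 152, 138 and 144 CPM in untreated mice. The groups lay far apart, and Pfkl fell by 0.86 ± 0.11 log2 units (adjusted p = 0.000455, edgeR), 1.82-fold lower. Pfkm, the muscle-type subunit, had 67.1, 73.3 and 67.1 CPM in doxycycline mice, against 77.7, 77.1 and 83.4 CPM in untreated mice. It fell by 0.20 ± 0.07 log2 units (adjusted p = 0.0445, edgeR), only 1.15-fold. The groups were apart by a narrow gap, and the call was lost on leaving out each mouse in turn except doxycycline mouse 2 (adjusted p = 0.117 and 0.116 without doxycycline mouse 1 or 3, and 0.0746, 0.0867 and 0.122 without untreated mouse 1, 2 or 3). Pfkp, the platelet-type subunit, had 105, 86.8 and 108 CPM in doxycycline mice, against 89.9, 88.2 and 92.7 CPM in untreated mice. Doxycycline mouse 2 lay under all untreated mice and the other 2 lay above them, with a log2 fold change of 0.15 ± 0.09 (adjusted p = 0.198, edgeR). Without doxycycline mouse 2 it passed as higher (adjusted p = 0.0130, log2 fold change 0.26). The Pfkl share of the 3 subunits per kilobase was 31.03, 28.2 and 33.1% in doxycycline mice, against 45.96, 43.9 and 43.4% in untreated mice. The Pfkp share was 37.7, 34.1 and 36.98% in doxycycline mice, against 25.4, 26.2 and 26.01% in untreated mice. The subunit with the highest mean level was thus Pfkp in doxycycline mice and Pfkl in untreated mice, while the total of the step was 69.2 ± 4.95 CPM per kilobase in doxycycline mice and 87.6 ± 2.71 in untreated mice, without overlap.

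Fructose 2,6-bisphosphate, the strongest activator of phosphofructokinase 1, is made and broken down by 4 bifunctional enzymes. Pfkfb3, the isozyme with the highest kinase activity, had 40.04, 36.1 and 43.3 CPM in doxycycline mice, against 68.7, 65.7 and 51.4 CPM in untreated mice. Untreated mouse 3 was the lowest of its group but still above every doxycycline mouse, and Pfkfb3 fell by 0.64 ± 0.12 log2 units (adjusted p = 0.00295, edgeR). Pfkfb2, the heart-type isozyme, had 24.2, 24.9 and 22.7 CPM in doxycycline mice, against 18.2, 18.6 and 22.3 CPM in untreated mice. Doxycycline mouse 3 and untreated mouse 3 were nearly equal, and Pfkfb2 rose by 0.28 ± 0.10 log2 units (adjusted p = 0.0494, edgeR). This rise was lost on leaving out each doxycycline mouse in turn (adjusted p = 0.107, 0.0947 and 0.0616 without mouse 1, 2 or 3) and without untreated mouse 1 or 2 (0.169 and 0.178). Pfkfb4 had 4.99 ± 0.139 CPM in doxycycline mice and 4.22 ± 0.461 CPM in untreated mice and Pfkfb1 1.83 ± 0.333 CPM in doxycycline mice and 2.41 ± 0.235 CPM in untreated mice. Neither passed, with log2 fold changes of 0.24 ± 0.16 (adjusted p = 0.235, edgeR) for Pfkfb4 and -0.39 ± 0.22 (adjusted p = 0.172, edgeR) for Pfkfb1. The share of Pfkfb3 per kilobase was 59.9 ± 1.71% in doxycycline mice and 71.1 ± 3.86% in untreated mice, and that of Pfkfb2 19.9 ± 2.16% in doxycycline mice and 12.6 ± 2.82% in untreated mice, both without overlap.

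Fbp1 showed the widest change of all 40 genes. It encodes fructose-1,6-bisphosphatase, which runs the phosphofructokinase step backwards in gluconeogenesis (chromosome 13, 62864753 to 62888298 of GRCm38). Its values were 1.18, 1.04 and 1.82 CPM in doxycycline mice, against 29.4, 45.1 and 15.3 CPM in untreated mice. Every untreated mouse lay far above every doxycycline mouse, and the untreated mice spread widely among themselves, with mouse 3 lowest. Fbp1 fell by 4.47 ± 0.49 log2 units (adjusted p = 0.00103, edgeR), 22.2-fold lower in the fitted means. The counts behind these values were 40, 47 and 79 reads in doxycycline mice, against 877, 1499 and 461 in untreated mice. The fall held in all 18 alternative fits, between -4.79 and -4.05 log2 units. Per kilobase, Fbp1 stood at 0.939 CPM per kilobase in doxycycline mice and 20.9 in untreated mice, while the 4 PFKFB genes together stood at 16.4 in untreated mice.

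**Figure D2:**
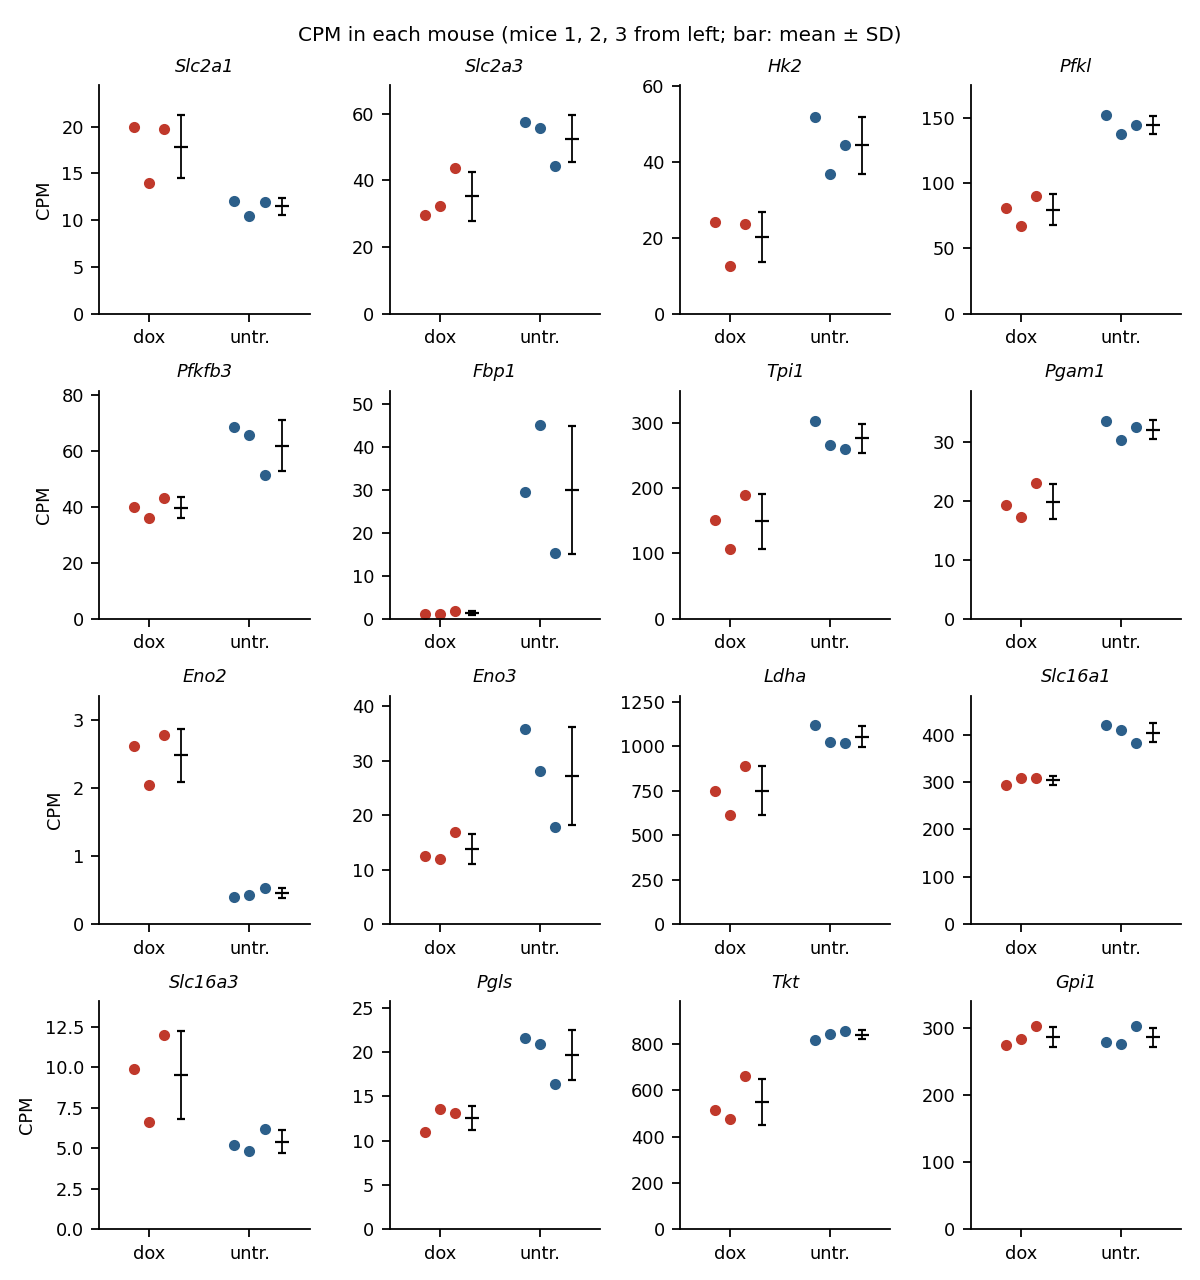
CPM of 16 of the genes in each mouse, doxycycline mice in red left of untreated mice in blue, with the mean ± SD of 3 mice as a black bar; every axis starts at 0. Pfkl, Hk2, Tpi1, Pgam1 and Tkt separate the groups, Slc2a1, Eno2 and Slc16a3 are higher after doxycycline, and Gpi1 overlaps.

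In lower glycolysis, 4 of 10 genes fell and 1 rose, so that 50% were called, as over all genes tested (50.0%). Aldoa, the main aldolase, which splits fructose bisphosphate, had 239.7, 196 and 316 CPM in doxycycline mice, against 288, 264 and 311 CPM in untreated mice. Doxycycline mouse 3 exceeded all untreated mice while mouse 2 was the lowest of the 6, and the log2 fold change was -0.20 ± 0.17 (adjusted p = 0.358, edgeR). Without doxycycline mouse 3 Aldoa passed as lower (adjusted p = 0.0259). Aldoc, the brain-type aldolase, stayed near or under 1 CPM and did not pass (log2 fold change 0.31 ± 0.37, adjusted p = 0.513, edgeR). Tpi1, triosephosphate isomerase (chromosome 6, 124810586 to 124814158 of GRCm38), had 151, 106 and 190.1 CPM in doxycycline mice, against 302, 265 and 260.5 CPM in untreated mice. The groups did not overlap, although doxycycline mice ranged widely, and Tpi1 fell by 0.89 ± 0.20 log2 units (adjusted p = 0.0122, edgeR), 1.85-fold lower. Pgk1, phosphoglycerate kinase, had 36.9, 30.4 and 41.9 CPM in doxycycline mice, against 48.7, 43.2 and 48.8 CPM in untreated mice. The groups came close without overlap, and Pgk1 fell by 0.37 ± 0.12 log2 units (adjusted p = 0.0312, edgeR). The Pgk1 call was lost without doxycycline mouse 1 or 2 (adjusted p = 0.0781 and 0.0705) or untreated mouse 1 or 3 (0.0919 and 0.0759), and without doxycycline mouse 2 the change was -0.24. Pgam1, phosphoglycerate mutase, had 19.4, 17.2 and 23.1 CPM in doxycycline mice, against 33.5, 30.2 and 32.5 CPM in untreated mice. All doxycycline mice lay well under all untreated mice, and Pgam1 fell by 0.69 ± 0.12 log2 units (adjusted p = 0.00176, edgeR).

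The enolase genes, for the enzyme that makes phosphoenolpyruvate, diverged. Eno1, the ubiquitous isozyme, had 106, 111 and 129 CPM in doxycycline mice, against 90.5, 81.05 and 120.0 CPM in untreated mice. Untreated mouse 3 lay among the doxycycline mice, and the log2 fold change was 0.25 ± 0.15 (adjusted p = 0.207, edgeR). Without untreated mouse 3 Eno1 passed as higher (adjusted p = 0.0129, log2 fold change 0.42). Eno2, the neuronal isozyme (chromosome 6, 124760053 to 124769673 of GRCm38), had 2.62, 2.04 and 2.78 CPM in doxycycline mice, against 0.402, 0.422 and 0.532 CPM in untreated mice. Low as it was, each doxycycline mouse lay several-fold above each untreated mouse, and Eno2 rose by 2.45 ± 0.26 log2 units (adjusted p = 0.000249, edgeR), 5.45-fold. Eno3, the muscle isozyme, had 12.4, 11.99 and 16.9 CPM in doxycycline mice, against 35.7, 28.04 and 17.9 CPM in untreated mice. It fell by 0.98 ± 0.27 log2 units (adjusted p = 0.0209, edgeR), and untreated mouse 3 lay just above doxycycline mouse 3. The Eno3 call was lost without doxycycline mouse 1 or 2 (adjusted p = 0.0733 and 0.0847) or untreated mouse 2 (0.0666). The Eno1 share of enolase per kilobase was 86.7, 87.8 and 85.7% in doxycycline mice, against 68.3, 71.02 and 84.96% in untreated mice. Untreated mouse 3 was again the one next to the doxycycline mice, and the total of the step overlapped. Pkm, pyruvate kinase, had 733, 803 and 982 CPM in doxycycline mice, against 963, 947 and 1061 CPM in untreated mice. Doxycycline mouse 3 reached into the untreated range, with a log2 fold change of -0.24 ± 0.11 (adjusted p = 0.101, edgeR). Without that mouse Pkm passed as lower (adjusted p = 0.0119).

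Several of these genes share sequence with other genes, often near-identical copies, and their levels are uncertain for that reason. Of the 50-base windows of the protein-coding GENCODE transcripts, 67.96% of those of Pgk1, 58.4% of Gapdh, 49.5% of Eno1, 41.5% of Pgam1, 26.8% of Mpc1, 24.97% of Pfkfb2, 24.5% of Gpi1, 23.7% of Pkm and 20.99% of Ldhb also occur in a transcript of another gene. Windows found in annotated pseudogenes were fewer for Eno1 (36.2%), Pkm (18.4%), Gpi1 (18.3%) and Mpc1 (14.8%). For Pfkfb2 they were 0%, and its 2 other genes were Gm29427 and Yod1, which overlaps it. For Gapdh, glyceraldehyde-3-phosphate dehydrogenase, the 222 other genes include 213 annotated pseudogenes. The first 90 coding bases of Pgam1 are shown because the same letters stand in its retrocopy Pgam1-ps2 (chromosome 7, 27469771 to 27470535 of GRCm38), which matches Pgam1 over 100% of the 765 coding bases.
Pgam1 and Pgam1-ps2: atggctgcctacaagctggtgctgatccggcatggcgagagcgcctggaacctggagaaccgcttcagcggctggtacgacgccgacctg
Such windows cannot place a read on 1 gene, and no source used here says how the authors' counting treated reads with several matches. Gapdh, usually among the most abundant messages of a cell, had 6.47, 7.90 and 7.24 CPM in doxycycline mice, against 4.83, 5.69 and 6.29 CPM in untreated mice. Doxycycline mice lay above untreated mice without passing, at 0.36 ± 0.16 (adjusted p = 0.0846, edgeR). As an alternative, the counts of 5 copies of the table that are named after their parent genes were added to these, while other genes of the table that share windows with them were not. Eno1b with 16029 counts over the 6 mice brought the Eno1 log2 fold change to 0.22 (adjusted p = 0.271). Aldoart1 and Aldoart2 (6765 and 2137 counts) brought Aldoa to -0.20 (adjusted p = 0.363). Mpc1-ps, whose 4851 counts exceed the 1153 of Mpc1, brought Mpc1 to 0.04 (adjusted p = 0.759). With Gapdh-ps15 (75 counts) Gapdh stood at 0.32 (adjusted p = 0.0974), but Gapdh-ps15 is only 1 of 11 genes of the table that share windows with Gapdh. None of the 4 parent genes passed in this fit. The isozyme shares, that of Eno1 included, were not recomputed with the copies added. For Ldha, 1 gene of the table, Gm13315, shares windows and was not added. Of the genes that fell, Slc2a3, Hk2, Fbp1, Eno3, Slc16a1, Pgls and Tkt had no window in another gene, and for Pfkl the share was 0.0532%.

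Spans that overlap another counted gene are a further limit, since the strand setting of the counting is not given. Eno3 overlaps Pfn1, which has 247216 counts over the 6 mice, against 4229 of Eno3. Pfn1 had a log2 fold change of 0.42 ± 0.09 (adjusted p = 0.00596, edgeR), the opposite direction to Eno3. Slc16a3 overlaps Csnk1d, with a log2 fold change of 0.05 ± 0.06 (adjusted p = 0.513, edgeR). Pfkm overlaps Senp1, at -0.01 ± 0.06 (adjusted p = 0.947, edgeR). Pfkfb2 overlaps Yod1, which rose like Pfkfb2, at 0.64 ± 0.13 (adjusted p = 0.00398, edgeR). Pfkp overlaps Pitrm1, which fell, at -0.74 ± 0.09 (adjusted p = 0.000379, edgeR). Rpe overlaps Kansl1l, with 15238 counts of Rpe beside 15285 of Kansl1l. Kansl1l fell, at -0.86 ± 0.10 (adjusted p = 0.000387, edgeR). G6pdx overlaps Ikbkg, which rose, at 0.33 ± 0.08 (adjusted p = 0.00676, edgeR), and Pfkfb1 overlaps Apex2, which fell, at -0.38 ± 0.11 (adjusted p = 0.0159, edgeR). The other 6 overlapping genes had at most 247 counts each over the 6 mice. The part of the overlaps in the values of the pathway genes, shares included, was not tested.

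**Figure D3:**
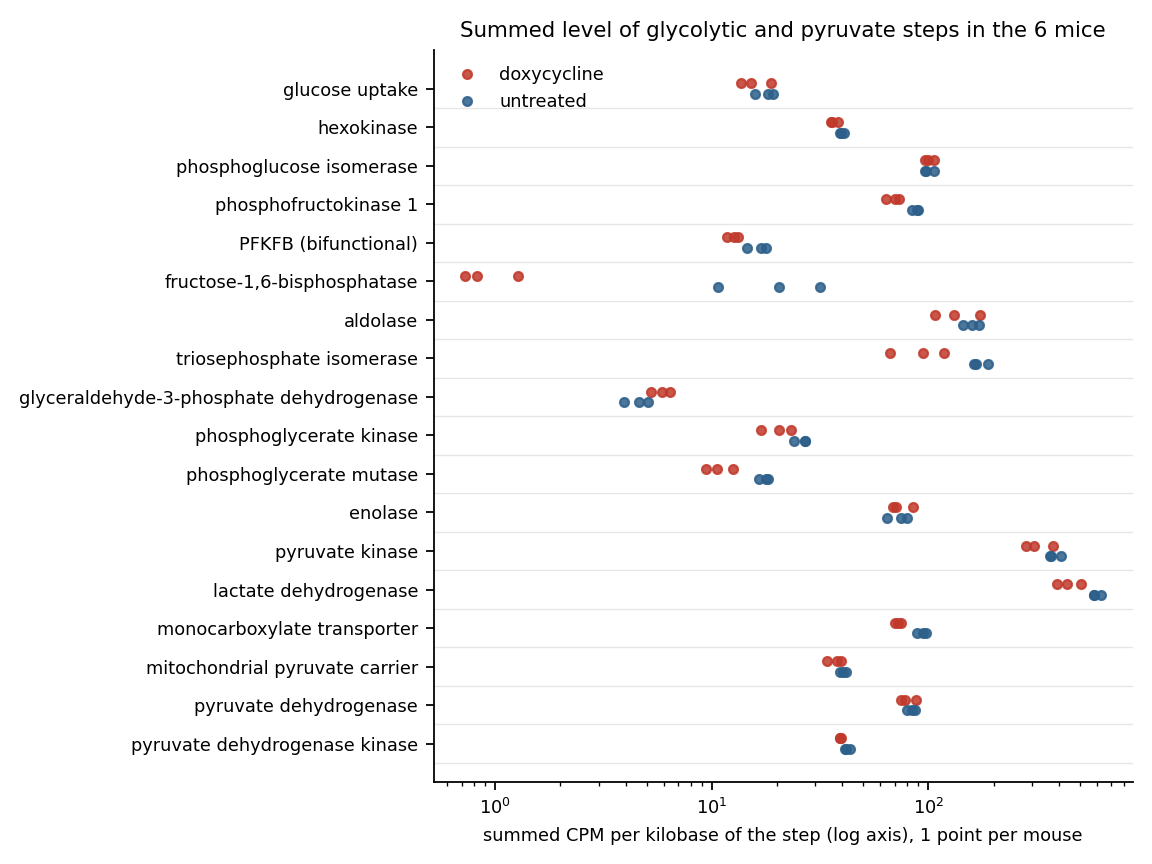
Summed CPM per kilobase of deposited gene length for 18 steps of glycolysis and pyruvate handling, on a log axis, with 1 point per mouse, doxycycline (red) above untreated (blue). Triosephosphate isomerase, phosphoglycerate mutase, lactate dehydrogenase and fructose-1,6-bisphosphatase show no overlap between the groups, and phosphoglucose isomerase, enolase and pyruvate kinase do.

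Of the genes of lactate production and export, Ldha and Slc16a1 fell and Slc16a3 rose. Ldha (chromosome 7, 46842274 to 46855627 of GRCm38), a promoter of which, with 2 E-boxes, is shown above, had 749, 615 and 889 CPM in doxycycline mice, against 1122, 1025 and 1018 CPM in untreated mice. Its groups did not overlap, and Ldha fell by 0.49 ± 0.13 log2 units (adjusted p = 0.0131, edgeR), 1.40-fold lower. Ldhb, whose product favours lactate oxidation, had 61.7, 94.5 and 57.04 CPM in doxycycline mice, against 58.95, 69.9 and 73.5 CPM in untreated mice. Doxycycline mouse 2 was the highest of the 6 and the groups overlapped, with a log2 fold change of 0.08 ± 0.20 (adjusted p = 0.776, edgeR). Per kilobase, as counted, Ldha was the highest of the 41 genes in both groups, at 389 CPM per kilobase in doxycycline mice and 547 in untreated mice. The levels of genes that share many windows with other genes, such as Gapdh and Pgk1, are uncertain, and so is this rank. Slc16a1, encoding the monocarboxylate transporter MCT1, had 294, 309 and 309.8 CPM in doxycycline mice, against 421, 410.3 and 383 CPM in untreated mice. Both groups were tight and apart, and Slc16a1 fell by 0.41 ± 0.07 log2 units (adjusted p = 0.00129, edgeR). Slc16a3, encoding MCT4, the exporter typical of strongly glycolytic cells, had 9.91, 6.64 and 11.98 CPM in doxycycline mice, against 5.20, 4.82 and 6.19 CPM in untreated mice. Doxycycline mouse 2 lay close to untreated mouse 3, and Slc16a3 rose by 0.82 ± 0.22 log2 units (adjusted p = 0.0152, edgeR), 1.76-fold. This call was lost without doxycycline mouse 1 or 3 (adjusted p = 0.0505 and 0.0553) or untreated mouse 1 or 2 (0.0547 and 0.0573). Slc16a1 remained the bulk of the pair per kilobase, at 94.9 ± 1.38% in doxycycline mice and 97.7 ± 0.392% in untreated mice.

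At the entry of pyruvate into mitochondria, none of the 5 tested genes of the pyruvate carrier, the pyruvate dehydrogenase subunit and its kinases passed. Mpc2, a subunit of the mitochondrial pyruvate carrier, had 26.99, 28.8 and 23.7 CPM in doxycycline mice, against 29.2, 29.8 and 29.9 CPM in untreated mice. Its groups were apart with doxycycline lower, but the test did not pass (log2 fold change -0.16 ± 0.09, adjusted p = 0.173, edgeR). Mpc1, the partner subunit, had 5.53 ± 0.253 CPM in doxycycline mice and 5.13 ± 0.739 CPM in untreated mice, with a log2 fold change of 0.11 ± 0.16 (adjusted p = 0.596, edgeR). Pdha1, for the catalytic subunit of pyruvate dehydrogenase, had 206, 241 and 215 CPM in doxycycline mice, against 233, 241 and 220.0 CPM in untreated mice, overlapping at -0.07 ± 0.08 (adjusted p = 0.488, edgeR). Pdk1 and Pdk3 encode kinases that switch that enzyme off. Pdk1 had 87.4, 98.9 and 90.5 CPM in doxycycline mice, against 91.6, 92.9 and 93.9 CPM in untreated mice, at -0.01 ± 0.07 (adjusted p = 0.924, edgeR). Pdk3 had 43.9, 40.3 and 43.2 CPM in doxycycline mice, against 51.3, 47.1 and 46.1 CPM in untreated mice, at -0.18 ± 0.08 (adjusted p = 0.0746, edgeR). The Pdk3 groups were apart, those of Pdk1 overlapped, and the pair were close in level per kilobase, with a Pdk3 share of the kinases of 54.1 ± 2.73% in doxycycline mice and 56.95 ± 1.57% in untreated mice. Pdk2 stayed under 0.5 CPM in all 6 mice and was not tested.

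Of the 7 pentose phosphate genes 2 fell (28.6%) and 0 rose, beside 25.2% lower and 24.8% higher over all genes tested. G6pdx, for glucose-6-phosphate dehydrogenase, the rate-limiting oxidative step, had 66.9, 73.2 and 77.5 CPM in doxycycline mice, against 81.05, 78.5 and 78.5 CPM in untreated mice. The groups were apart by a narrow gap and the test did not pass (log2 fold change -0.13 ± 0.07, adjusted p = 0.175, edgeR). Pgls, for the lactonase of the next step, had 10.97, 13.5 and 13.1 CPM in doxycycline mice, against 21.5, 20.9 and 16.4 CPM in untreated mice. It fell by 0.64 ± 0.14 log2 units (adjusted p = 0.00503, edgeR), with untreated mouse 3 lowest of its group and still above the doxycycline mice. Pgd, for the other NADPH-yielding dehydrogenase, had 180.1, 192 and 200.3 CPM in doxycycline mice, against 218, 200.4 and 208 CPM in untreated mice. Its log2 fold change was -0.13 ± 0.07 (adjusted p = 0.137, edgeR), with doxycycline mouse 3 just under the lowest untreated mouse. Rpia and Rpe, for the isomerase and epimerase of the pentose phosphates, had 44.5 ± 6.99 CPM in doxycycline mice and 50.2 ± 1.17 CPM in untreated mice for Rpia and 67.02 ± 4.99 CPM in doxycycline mice and 76.1 ± 3.53 CPM in untreated mice for Rpe. Neither passed, at -0.18 ± 0.11 (adjusted p = 0.222, edgeR) for Rpia and -0.18 ± 0.08 (adjusted p = 0.0781, edgeR) for Rpe, although Rpe passed as lower without doxycycline mouse 1 (adjusted p = 0.0367). Tkt, transketolase, which links the pathway back to glycolysis (chromosome 14, 30549131 to 30574724 of GRCm38), had 513, 475 and 661 CPM in doxycycline mice, against 819, 844 and 858 CPM in untreated mice. Doxycycline mice stayed well under untreated mice, and Tkt fell by 0.61 ± 0.12 log2 units (adjusted p = 0.00333, edgeR), 1.53-fold lower. Taldo1, transaldolase, its partner in the non-oxidative branch, had 182, 201 and 203 CPM in doxycycline mice, against 188, 185 and 184 CPM in untreated mice. Its groups overlapped, at 0.07 ± 0.07 (adjusted p = 0.379, edgeR). The 2 enzymes of carbon exchange thus had log2 fold changes on either side of 0, -0.61 for Tkt and 0.07 for Taldo1. The difference between the 2 genes was not tested. The groups did not overlap for 6 of the 7 genes (85.7%), each with doxycycline lower, against 61.2% over all genes tested in either direction.

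**Figure D4:**
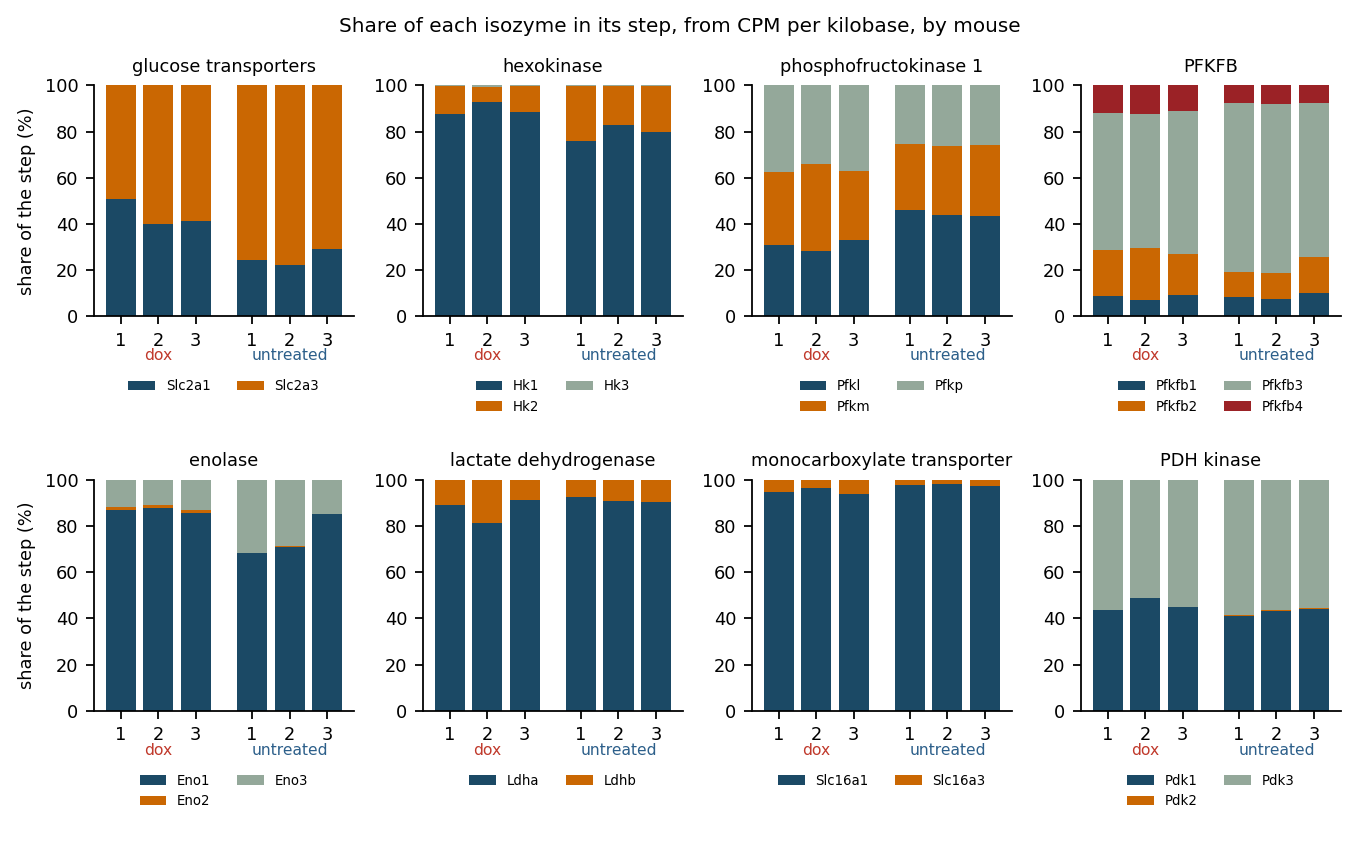
Share of each isozyme in the summed CPM per kilobase of its step, as stacked bars per mouse, doxycycline mice left of untreated mice. The Pfkl, Hk2, Slc2a3 and Pfkfb3 shares are smaller in each doxycycline mouse than in each untreated mouse, and for enolase untreated mouse 3 resembles the doxycycline mice.

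Lists of neighbouring genes were counted in the same way, beside 24.8% higher and 25.2% lower over all genes tested. Of 13 tested genes for other isozymes and carriers of the same steps, 4 rose (30.8%) and 2 fell (15.4%). The 2 with the smallest p fell: Adpgk, an ADP-dependent glucokinase, at -0.38 ± 0.07 (adjusted p = 0.00202, edgeR), and Ldhd, a D-lactate dehydrogenase, at -1.59 ± 0.28 (adjusted p = 0.00246, edgeR). Slc2a9, a urate and hexose transporter, rose by 0.60 ± 0.11 log2 units (adjusted p = 0.00274, edgeR). The list's median log2 fold change was 0.33, and 2 genes of it rose when any 1 doxycycline mouse was left out. Of 7 tested genes of the pyruvate dehydrogenase complex and its phosphatases 3 fell (42.9%) and 0 rose, namely Dlat (log2 fold change -0.39 ± 0.06, adjusted p = 0.00152, edgeR), Pdhx (log2 fold change -0.32 ± 0.07, adjusted p = 0.00775, edgeR) and Pdp1 (log2 fold change -0.46 ± 0.15, adjusted p = 0.0288, edgeR). Dlat and Pdhx encode core subunits, and Pdp1 the phosphatase that switches the complex on. The Pdp1 call was lost on leaving out each doxycycline mouse in turn (adjusted p = 0.0521, 0.0795 and 0.0733 without mouse 1, 2 or 3) or without untreated mouse 1 or 2 (0.104 and 0.0951).

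Of the 14 genes listed for the citric acid cycle, 11 fell (78.6%, beside 25.2% over all genes tested) and 0 rose. The list includes Pcx and Pck2, whose enzymes act beside the cycle, and no succinate dehydrogenase subunit. Pck2 was among those that fell, at -2.19 ± 0.51 (adjusted p = 0.0122, edgeR), and Pcx did not pass. The median of the 14 log2 fold changes was -0.23. Fh1, fumarate hydratase, had 121, 107 and 129 CPM in doxycycline mice, against 203, 195 and 178 CPM in untreated mice. It fell by 0.69 ± 0.09 log2 units (adjusted p = 0.000439, edgeR). Suclg2, a succinate-CoA ligase subunit, fell by 0.75 ± 0.14 log2 units (adjusted p = 0.00302, edgeR). Idh3a, a subunit of NAD-dependent isocitrate dehydrogenase, fell by 0.50 ± 0.10 log2 units (adjusted p = 0.00365, edgeR). Without doxycycline mouse 1 or 2, or untreated mouse 1 or 2, the count that fell was 6 in each case. Glycogen and hexosamine genes went both ways, with 4 of 13 higher (30.8%) and 3 lower (23.1%). Pgm1, a phosphoglucomutase, fell by 0.59 ± 0.12 log2 units (adjusted p = 0.00401, edgeR). Pygl, a glycogen phosphorylase, rose by 0.88 ± 0.28 log2 units (adjusted p = 0.0295, edgeR), a call lost without doxycycline mouse 1 or 3 (adjusted p = 0.0747 and 0.0864) or untreated mouse 2 or 3 (0.0848 and 0.0737). The list had 0 genes called higher without doxycycline mouse 1, doxycycline mouse 3 or untreated mouse 3, and 1 without untreated mouse 1 or 2. It had 1 called lower without doxycycline mouse 3 or untreated mouse 2. Of 9 tested genes of the cytosolic redox shuttles 2 rose (22.2%) and 3 fell (33.3%). Slc25a12 and Slc25a13 encode the mitochondrial aspartate-glutamate carriers. Slc25a12 rose by 0.59 ± 0.07 log2 units (adjusted p = 0.000466, edgeR). Slc25a13 fell by 0.87 ± 0.12 log2 units (adjusted p = 0.000809, edgeR). Gsr, glutathione reductase, which consumes NADPH, fell by 0.72 ± 0.10 log2 units (adjusted p = 0.000625, edgeR).

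Among 16 tested genes listed as regulators of glycolytic genes 7 rose (43.8%) and 2 fell (12.5%), beside 24.8% and 25.2% over all genes tested. The list is broad and also holds genes such as Txnip and Cnr2, which do not encode transcription factors. It was chosen with earlier results of these data known, so its shares cannot test whether regulators moved more than other genes. Without untreated mouse 2, 1 fell. Myc, a transcription factor that induces many glycolytic genes, had 113, 151 and 172 CPM in doxycycline mice, against 363, 340.2 and 391.9 CPM in untreated mice. The groups lay far apart, and Myc fell by 1.33 ± 0.15 log2 units (adjusted p = 0.000439, edgeR). Txnip, encoding a protein that lowers glucose uptake by removing transporters from the cell surface, had 196, 254 and 194 CPM in doxycycline mice, against 50.6, 70.3 and 66.1 CPM in untreated mice. It rose by 1.78 ± 0.16 log2 units (adjusted p = 0.000201, edgeR). Cnr2, the cannabinoid receptor CB2, rose by 1.15 ± 0.10 log2 units (adjusted p = 0.000110, edgeR). Hif1a, for a hypoxia-inducible factor subunit, had 261, 199 and 237 CPM in doxycycline mice, against 254, 225 and 213 CPM in untreated mice. Its groups overlapped and it did not pass (log2 fold change 0.01 ± 0.11, adjusted p = 0.952, edgeR). Epas1, for another hypoxia-inducible factor subunit, had 87.9, 93.1 and 109 CPM in doxycycline mice, against 18.8, 23.6 and 41.3 CPM in untreated mice. The groups did not overlap, and Epas1 rose by 1.796 ± 0.301 log2 units (adjusted p = 0.00458, edgeR). Of 12 tested hypoxia targets outside glycolysis 4 rose (33.3%) and 1 fell (8.33%), so that 41.7% were called, against 50.0% over all genes tested. Without untreated mouse 3, 2 fell. P4ha2, a collagen prolyl hydroxylase, had 2.91, 4.40 and 3.36 CPM in doxycycline mice, against 0.436, 0.512 and 0.565 CPM in untreated mice. It rose by 2.81 ± 0.26 log2 units (adjusted p = 0.000134, edgeR). Kdm3a, a histone demethylase, rose by 0.52 ± 0.08 log2 units (adjusted p = 0.00112, edgeR). Ddit4, a stress-induced inhibitor of mTORC1, rose by 1.95 ± 0.30 log2 units (adjusted p = 0.00351, edgeR). That call was lost only without both doxycycline mouse 2 and untreated mouse 3 (adjusted p = 0.0854, log2 fold change 1.99), among the alternatives run.

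**Figure D5:**
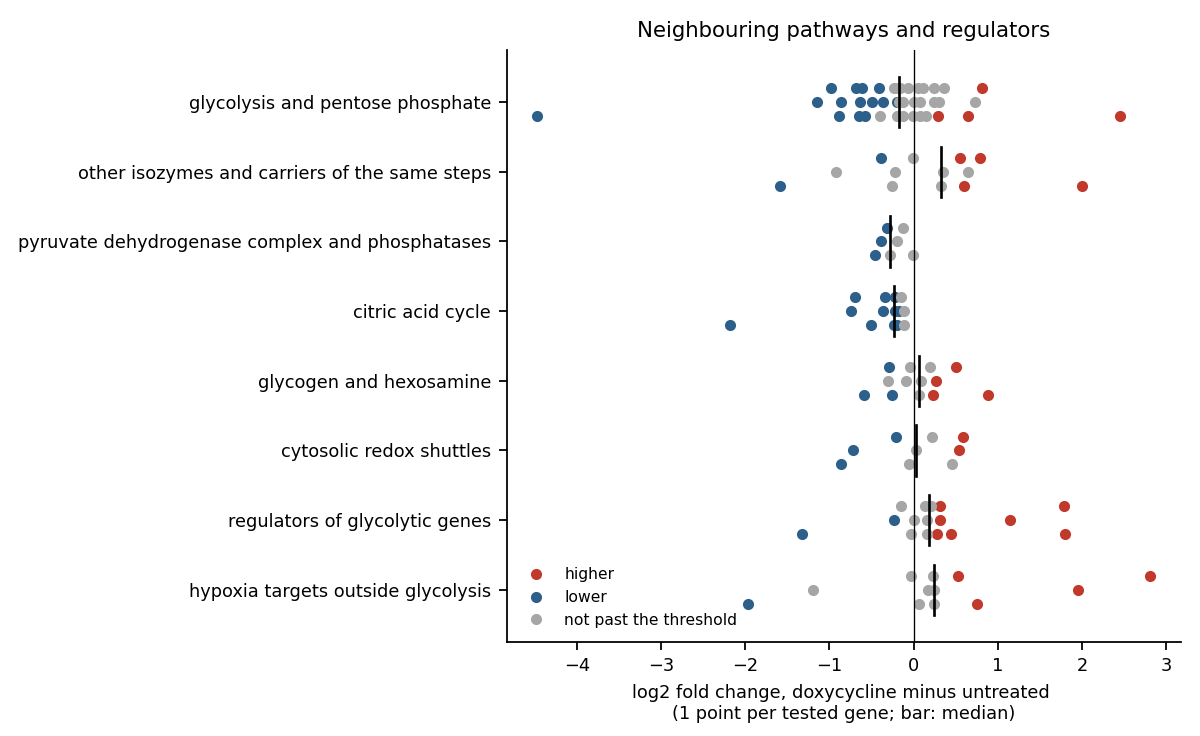
Log2 fold change of each tested gene of the 41 and of 7 lists of neighbouring pathways and regulators, 1 point per gene, red for genes that rose, blue for genes that fell and grey for genes that did not pass, with the list's median as a black bar. Genes listed for the citric acid cycle, Pcx and Pck2 included, lie on the lower side, with 11 of 14 past the threshold, and regulators spread to both sides.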

How the data were processed

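The deposited values were raw read counts per gene for 12 libraries, 2 sequencing runs of each of 6 RNA samples, made by the authors with CASAVA 1.8.1 and featureCounts against mm10, per the submitters' processing notes. The aligner, the strand setting and the treatment of reads with several matches are given in no source used here. The 12 libraries equal their columns in the table of the whole series. The runs of a mouse differed little beyond counting noise (chi-square per gene 1.01 to 1.04, against 9.70 to 76.1 between mice of a group), so their counts were summed and each mouse counted once. Entrez IDs were matched to symbols for 25293 of 27179 genes (93.1%).

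The 41 genes and the lists of related genes and markers were chosen with earlier results of these data known. Their shares called are thus descriptions, and no test against all genes. All genes were fitted in edgeR 4.0.16 (R 4.3.3; filterByExpr, TMM, robust quasi-likelihood F test, Benjamini-Hochberg adjustment over 13134 genes), after a check on simulated data. The SE is the log2 fold change divided by the root of F. The common biological coefficient of variation was 13.9%, and a count of 0 allowed 0.0667 to 0.100 CPM (3 counts per library, counting error only). Levels between genes were compared as CPM divided by the deposited gene length. By rule, values per mouse are given for genes that passed with at least 5 CPM in the higher group and for the highest isozyme of each step, and of each related list up to 3 genes with the smallest p are named, except 1 gene that is not reported here. Values per mouse of further genes, such as Eno2, P4ha2, Hif1a and Epas1, were added after the values were seen. Promoters came from RefSeq and transcripts from GENCODE. Alternatives were other scalings, filters, DESeq2 1.42.0, limma-voom (limma 3.58.1), each run alone, a replicate block, copies added to their parent genes and mice left out. Figures were drawn with matplotlib 3.10.9 under Python 3.11.15.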

Additional observations from a re-analysis of the deposited data

How the results depend on the processing

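Of the 18 pathway genes called, 12 were called in every one of 18 alternative fits, and of the 22 not called, 17 were called in none. No pathway gene changed sign past the threshold in these fits. Leaving out 1 mouse at a time gave 2 to 5 pathway genes higher and 11 to 15 lower, 2 to 3 other isozymes higher, 6 to 10 citric acid cycle genes lower, 0 to 4 glycogen and hexosamine genes higher and 1 to 3 lower, 1 to 2 regulators lower and 1 to 2 hypoxia targets lower. With no filter on low counts 4 other isozymes were lower. In run 1 alone 2 glycogen and hexosamine genes were higher and 1 lower, and in run 2 alone 1 of them and 2 other isozymes were higher. Without untreated mouse 3 and doxycycline mouse 2 together, 2 hypoxia targets were lower. The cause was not tested, although a single run and fewer mice hold less data by construction. No scaling moved the median log2 fold change of all genes by 0.1. Hk3, under 1 CPM in every mouse, had an SE of 0.43 log2 units.

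The labels state no pairing of mice by replicate number. Deviations from the group means of same-numbered mice correlated at 0.16, -0.01 and -0.10 for mice 1, 2 and 3. Deviations within a group of 3 sum to 0, so these values cannot settle whether the numbers pair the mice. A fit with the number as a replicate block called 4 pathway genes higher and 12 lower, and 3103 genes higher and 3156 lower in all. Mouse 1 of each group correlated best with its own number, and mice 2 and 3 did not.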
